A study of Mus musculus with 6 samples.

Results

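In retinae that had lost Rb1 and p107, 9 genes of the Notch pathway and of the neurogenic basic helix-loop-helix (bHLH) factors are described: the receptor Notch1, the ligands Dll1 and Dll4, the HES factors Hes1, Hes5 and Hes6, and the transcription factors Neurog2, Atoh7 and Olig2. They were chosen by name, and each matched 1 row of the 24062 genes in the count table. All 9 were among the 16904 genes tested, although Atoh7 did so at the minimum sum of 10 counts and Olig2 only through its counts in 1 genotype. Loss of Hells in addition to Rb1 and p107 went with lower Dll4, Hes5 and Neurog2, each by more than 4-fold. Notch1, Hes6 and Dll1 were also lower, by less than 2-fold, and Hes1 did not pass the test.

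Notch signalling passes between neighbouring cells: a Delta or Jagged ligand on 1 cell binds a Notch receptor on the next, the receptor is cut, and its inner part enters the nucleus and joins the DNA-binding protein RBPJ. Genes turned on this way include Hes1 and Hes5, whose proteins repress proneural bHLH genes such as Neurog2, and proneural factors in turn raise Delta ligands in the cells that leave the cycle as neurons. In the developing retina this loop sets how many progenitors keep dividing and how many become neurons, and late in development it also bears on the forming of Müller glia.

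Whole retinae of C57BL/6 mice (C57BL/6N in the methods) were taken at postnatal day 21 (P21) and 1 RNA-seq library was made from each. Both genotypes carried Chx10-Cre, which acts in early retinal progenitors in a mosaic pattern, with Rb1 lox/lox alleles and a germline p107-/- deletion (gene Rbl1). The 3 Rb1/p107/Hells TKO retinae also carried Hells lox/lox, in which exon 12 is removed, and the 3 Rb1/p107 DKO retinae kept Hells. Because recombination is mosaic, each retina also holds cells that kept Rb1 and Hells, and no retina with intact Rb1 and p107 was analysed here. The labels do not say whether retinae came from separate mice, so p-values measure the spread between these samples, which may be partly technical.

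Library totals ran from 10343907 to 14203098 counts, and counts varied among replicates beyond sampling error (chi-square divided by its degrees of freedom, 8.61 to 25.3). Hells stood at 532 ± 142 normalized counts in DKO and at 70.9 ± 11.5 in TKO retinae (SD, n = 3 each). Its log2 fold change was -2.91 (edgeR's quasi-likelihood test, adjusted p = 0.00359, standard error 0.225). The groups did not overlap, but counts cover the whole gene and not exon 12 alone, and mitotic genes such as Top2a fell by as much, so the deletion itself was not read. By the same test Rb1 was at 0.34 (adjusted p = 0.0388) and Rbl1 at 0.13 (adjusted p = 0.839) on the log2 scale, and exons outside the deleted parts count on these genes too. As a check of the tissue, Gnat1, the rod transducin gene, had from 26618 to 158002 normalized counts in a library. TKO replicate 3 and DKO replicate 3 lay nearest to the other genotype for rod and dividing cell markers. Lens genes summed to 3080 normalized counts in TKO replicate 2 and to at most 565 in the other libraries.

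The regions upstream of Hes5, Dll4 and Neurog2 are shown because these were the members called lower by the rule given with their counts. RefSeq promoter windows on GRCm38.p6 matched 8 of the 9 genes by symbol, and Hes1 is named only. Each line holds the 250 bases before the annotated start on the plus strand, written 5′ to 3′, with the RBPJ core TGGGAA or its reverse complement in capitals.
Hes5 (chr4:154960673-154960922): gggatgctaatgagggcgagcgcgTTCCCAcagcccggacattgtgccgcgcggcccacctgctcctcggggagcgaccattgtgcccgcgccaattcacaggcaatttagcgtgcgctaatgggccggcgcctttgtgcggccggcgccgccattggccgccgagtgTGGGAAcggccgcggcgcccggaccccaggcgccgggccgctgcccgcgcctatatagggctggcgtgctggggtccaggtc
Dll4 (chr2:119325534-119325783): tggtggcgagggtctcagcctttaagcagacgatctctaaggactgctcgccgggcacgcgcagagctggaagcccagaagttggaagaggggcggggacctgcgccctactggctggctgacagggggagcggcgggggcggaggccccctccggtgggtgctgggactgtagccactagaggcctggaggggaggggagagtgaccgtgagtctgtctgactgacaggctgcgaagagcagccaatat
Neurog2 (chr3:127632886-127633135): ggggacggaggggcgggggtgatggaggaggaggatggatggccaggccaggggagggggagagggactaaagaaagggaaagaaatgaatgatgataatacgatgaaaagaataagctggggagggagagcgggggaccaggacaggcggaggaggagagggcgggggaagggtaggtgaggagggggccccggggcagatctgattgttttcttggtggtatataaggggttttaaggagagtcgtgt

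Both strands were searched for 5 motifs, and none of the matches in these genes overlapped another. The RBPJ core TGGGAA lay in 2 places in the Hes5 window, 226 bases before the start on the minus strand and 82 bases before it on the plus strand. It was absent from the Dll4 and Neurog2 windows and present once in the Atoh7 window, and 21.6% of all 32851 windows of 250 bases held it. An E-box, CANNTG, the site of bHLH proteins, lay 194 bases before the start of Hes5 and was found in 66.2% of all windows. The N-box CACNAG, which HES proteins bind, lay 75 bases before the start of Dll4 and was found in 36.7% of all windows. The E2F strings TTTGGCGC and TTTCCCGC were in 0.417% and 0.895% of all windows and in none of the windows of these genes. These matches describe letters and are not measured binding sites.

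The ligands were not alike. Dll4, a Delta ligand of newborn retinal neurons and of sprouting blood vessels (chr2:119325784-119335962, plus strand), had 276, 229 and 155 normalized counts in DKO replicates 1, 2 and 3, and 28.7, 22.1 and 57.7 in TKO replicates 1, 2 and 3. A normalized count is the raw count corrected for library size with edgeR's TMM factors. The lowest DKO retina, replicate 3, had more than the highest TKO retina, also replicate 3, so the groups did not overlap. Dll4 fell by 2.62 on the log2 scale (standard error 0.359, 95% interval -3.44 to -1.79, edgeR's quasi-likelihood test with Benjamini-Hochberg adjustment, adjusted p = 0.00691), and the fitted level was 6.13-fold lower in TKO retinae. An antisense gene, Gm14207, shares exon positions with Dll4 on the other strand and had 1, 3 and 6 counts in TKO and 23, 26 and 19 counts in DKO retinae. The library kit kept strand, but the strand setting of the counting is not given in the sources used here, so how reads were shared between these genes is uncertain.

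Dll1, the Delta ligand of dividing progenitors and newborn neurons (chr17:15367354-15376872, minus strand), had 249, 285 and 298 normalized counts in DKO and 144, 181 and 226 in TKO retinae. All TKO values lay below all DKO values, but TKO replicate 3 was close to DKO replicate 1. Its log2 fold change was -0.60 (standard error 0.173, 95% interval -0.99 to -0.20, edgeR's quasi-likelihood test, adjusted p = 0.0495). Leaving out any library except TKO replicate 3 moved the adjusted p above 0.05, to between 0.0897 and 0.153. Within each library the ratio of Dll4 to Dll1 counts, which no scaling factor changes, was 1.11, 0.804 and 0.519 in DKO and 0.198, 0.122 and 0.255 in TKO retinae. The mean ratio was thus 4.22-fold higher in DKO retinae (exact permutation p = 0.1, two-sided, the smallest that 3 retinae against 3 allow, and 0.133 adjusted over the 20 ratios and shares compared). Fewer cells of a type and less RNA per cell cannot be told apart in whole retinae, for these genes as for those that follow.

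Notch1, the main receptor of retinal progenitors (chr2:26457903-26516663, minus strand), had 1524, 1095 and 1422 normalized counts in DKO and 619, 698 and 873 in TKO retinae. No TKO retina reached the lowest DKO retina, replicate 2. The log2 fold change was -0.89 (standard error 0.157, 95% interval -1.25 to -0.52, edgeR's quasi-likelihood test, adjusted p = 0.0108), a fall of less than 2-fold. Leaving out TKO replicate 2 gave an adjusted p of 0.0535. With total counts alone as the scaling, the log2 fold change was -1.03.

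Notch1 was also a smaller share of the receptors in TKO retinae. It made up 58.7, 60.8 and 64.1% of the summed level of the 4 Notch receptors per kilobase in DKO replicates 1, 2 and 3, and 40.6, 45.7 and 50.8% in TKO replicates 1, 2 and 3. The shares did not overlap (exact permutation p = 0.1, two-sided). Notch2 had 462 ± 124 normalized counts in DKO and 429 ± 62.7 in TKO retinae (SD, n = 3 each). Its log2 fold change, -0.11, did not pass edgeR's test (adjusted p = 0.735). Notch3, a receptor of mural cells around vessels, was at 0.22 on the log2 scale (adjusted p = 0.534).

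The 3 HES genes differed from each other. Hes5, a direct target of Notch that represses proneural genes (chr4:154960923-154962371, plus strand), had 165, 156 and 96.7 normalized counts in DKO and 21.8, 27.4 and 50.3 in TKO retinae. DKO replicate 3 was the lowest of its group and TKO replicate 3 the highest of its group, and a gap remained between them. Hes5 fell by 2.07 on the log2 scale (standard error 0.34, 95% interval -2.85 to -1.29, edgeR's quasi-likelihood test, adjusted p = 0.00886), to a level 4.21-fold lower.

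Hes1, also a Notch target and a gene of progenitors and Müller glia (chr16:30064384-30067796, plus strand), had 201, 248 and 157 normalized counts in DKO and 139, 172 and 193 in TKO retinae. The groups overlapped, since DKO replicate 3 lay below TKO replicates 2 and 3. The log2 fold change of -0.27 did not pass the test (standard error 0.199, 95% interval -0.73 to 0.19, adjusted p = 0.38 from edgeR, exact permutation p = 0.4). The interval still allows a decrease of up to 0.73 on the log2 scale.

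Counts of Hes5 per count of Hes1 were 0.818, 0.629 and 0.615 in DKO and 0.157, 0.160 and 0.261 in TKO retinae, without overlap (exact permutation p = 0.1). Hes5 therefore moved relative to Hes1 within every library, and the mean ratio was 3.57-fold higher in DKO retinae. Hes5 per Notch1 count was 0.106 ± 0.0372 in DKO and 0.0440 ± 0.0120 in TKO retinae (SD, n = 3 each, exact permutation p = 0.1).

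Hes6, an unusual family member that counters Hes1 and favours neuronal differentiation (chr1:91411483-91414038, minus strand), had 520, 538 and 449 normalized counts in DKO and 344, 326 and 319 in TKO retinae. The 3 TKO values lay close together, all under the lowest DKO value. Its log2 fold change was -0.61 (standard error 0.104, 95% interval -0.84 to -0.37, edgeR's quasi-likelihood test, adjusted p = 0.0101), and its adjusted p was 0.052 without TKO replicate 2 and 0.0511 without DKO replicate 2. The ratio of Hes6 to Hes1 counts overlapped between genotypes (exact permutation p = 0.2). Per kilobase, Hes5 made up 21.0 ± 2.97% of the summed level of Hes1, Hes5 and Hes6 in DKO and 8.29 ± 3.26% in TKO retinae (SD, n = 3 each), while Hes1 made up 20.6 ± 1.93% and 28.4 ± 3.12% (exact permutation p = 0.1 for each).

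Neurog2 was lower in TKO retinae by an amount close to that of Dll4, and the difference between these genes was not tested. This proneural factor drives progenitors towards a neuronal fate (chr3:127633135-127635631, plus strand), and it had 391, 407 and 250 normalized counts in DKO and 34.4, 50.5 and 63.8 in TKO retinae. Every DKO retina lay far above every TKO retina. Neurog2 fell by 2.82 on the log2 scale (standard error 0.268, 95% interval -3.43 to -2.20, edgeR's quasi-likelihood test, adjusted p = 0.00419), to a level 7.04-fold lower.

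Atoh7 and Olig2 were near the limit of detection. Atoh7, which retinal ganglion cells need to form (chr10:63099651-63101279, plus strand), had 5, 3 and 0 counts in DKO replicates 1, 2 and 3 and 0, 1 and 1 counts in TKO replicates 1, 2 and 3, and a difference was not detectable at this depth (adjusted p = 0.435 from edgeR). Olig2, a bHLH factor of a subset of progenitors and of the oligodendrocyte lineage (chr16:91225457-91228677, plus strand), had 16, 19 and 3 counts in DKO retinae and 0 counts in all 3 TKO retinae. Its DKO counts came mostly from replicates 1 and 2. A library with 0 counts could hold up to 3 by counting error alone. With 3 counts in each TKO library, the DKO mean of Olig2 would be 3.34-fold above the TKO mean. This value leaves out the spread among DKO retinae, of which replicate 3 also had only 3 counts. Its adjusted p was 0.0369 from edgeR, but its mean of 5.63 normalized counts was under the minimum of 10 set for a call, and without TKO replicate 1, TKO replicate 2, DKO replicate 1 or DKO replicate 2 the adjusted p lay between 0.0794 and 0.113.

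**Figure D1:**
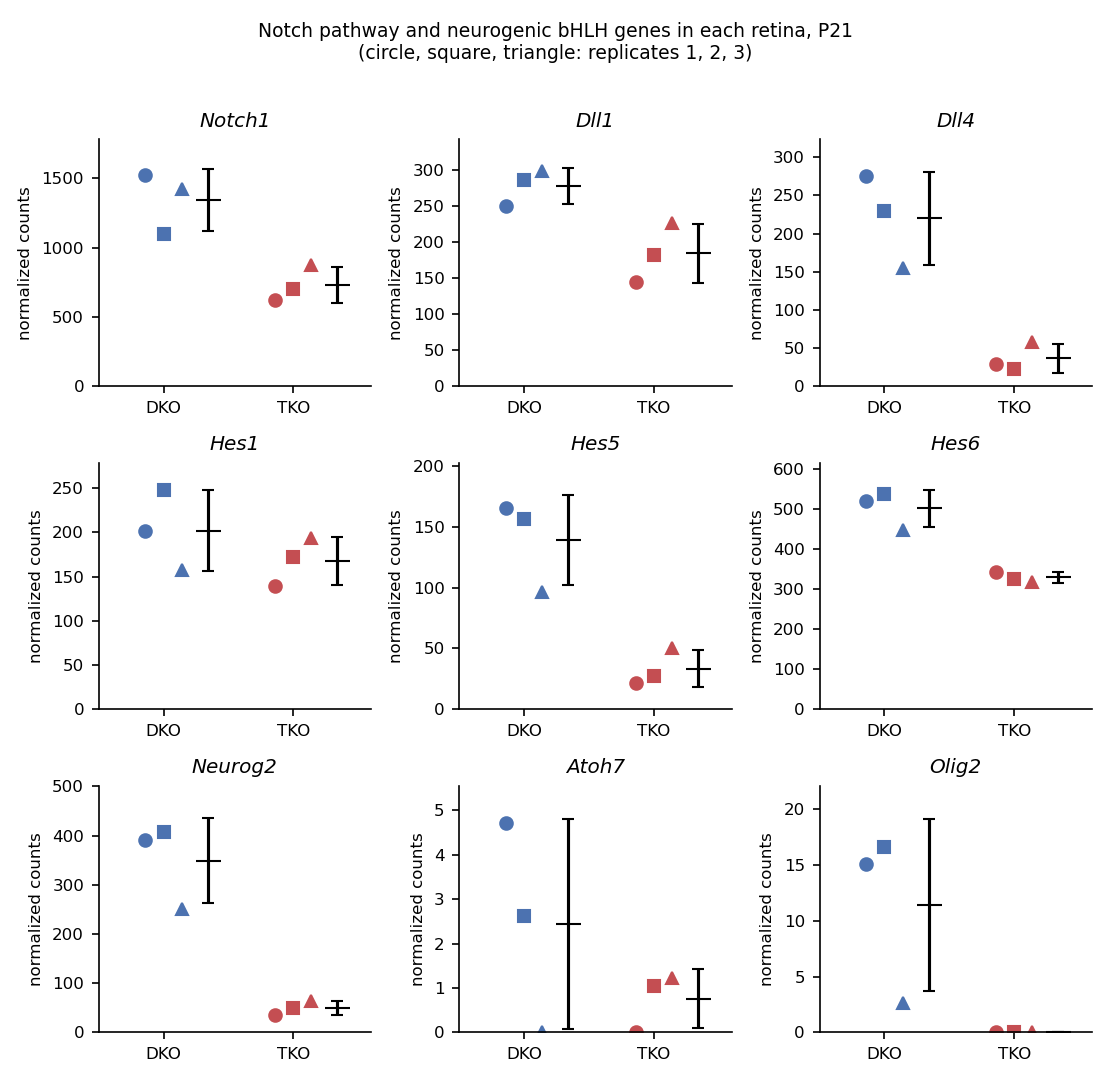
Normalized counts (y axis, from 0) of the 9 genes in each DKO (blue) and TKO (red) retina at P21, with the replicate number given by the marker shape and the group mean ± SD (n = 3) beside the points. Dll4, Hes5 and Neurog2 have no TKO retina above 63.8 normalized counts and no DKO retina below 96.7, whereas the Hes1 points of the genotypes overlap.

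A gene was called when its adjusted p was at most 0.05, its absolute log2 fold change at least 1 and its mean normalized count at least 10. By that rule 3 of the 9 members were called, all lower in TKO retinae (Dll4, Hes5 and Neurog2) and 0 higher, where 6.35% of all genes tested were called, 4.38% lower and 1.97% higher. Over all genes that was 741 lower and 333 higher, or 983 lower and 247 higher with total counts alone as the scaling. With the adjusted p alone, 7 members were lower and 0 higher, where 9.2% of all genes tested were lower and 7.35% higher. The TKO values of 7 members lay wholly below their DKO values, as did 20.6% of all genes tested. Olig2 is in both counts, but it entered the test only through its DKO counts, so its direction was fixed by the filter on low counts. The median log2 fold change over the 9 members was -1.51, which is the fitted value of Atoh7 and rests on few counts, and the median over all genes tested was -0.01.

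On the scale of CPM per kilobase of exons, the order of the members changed with genotype. In DKO retinae Hes6 was highest at 22.0 ± 2.05, followed by Neurog2 at 12.4 ± 3.07, Hes5 at 8.07 ± 2.14, Hes1 at 7.84 ± 1.76 and Notch1 at 7.48 ± 1.24 (SD, n = 3). Dll1 at 5.20 ± 0.472 and Dll4 at 4.51 ± 1.25 came next. Neurog2 and Hes5, Hes5 and Hes1, Hes1 and Notch1, and Dll1 and Dll4 overlapped as neighbours. Hes6 stood above Neurog2, and Notch1 above Dll1, without overlap.

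In TKO retinae Hes6 was again highest at 14.4 ± 0.562, but Hes1 came next at 6.51 ± 1.05, before Notch1 at 4.05 ± 0.720 and Dll1 at 3.44 ± 0.763. Hes5 at 1.92 ± 0.877, Neurog2 at 1.76 ± 0.523 and Dll4 at 0.742 ± 0.388 were lower still. Notch1 and Dll1, Dll1 and Hes5, and Hes5 and Neurog2 overlapped as neighbours. Olig2 and Atoh7 were at 0.357 and 0.119 in DKO and at 0 and 0.0369 in TKO retinae, the lowest 2 places in both genotypes.

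The wider Notch pathway was read from a list of 62 genes, of which 61 were tested. Of these, 4 were higher and 15 lower in TKO retinae at an adjusted p of at most 0.05, and 42 did not pass. Outside the members, 55 genes were tested, with 4 higher, 10 lower and a median log2 fold change of -0.06. The called genes outside the members were 1 higher, Jag1, and 4 lower, Nrarp, Heyl, Hes2 and Neurl1b. Of all genes tested, 6.35% were called, 4.38% lower and 1.97% higher, and by the adjusted p alone 9.2% were lower and 7.35% higher. Whether the pathway counts exceed these shares was not tested, so the calls are described gene by gene. The same shares stand beside the lists that follow.

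Jag1, a Jagged ligand made by Müller glia and vessels among other cells, had 535, 485 and 551 normalized counts in DKO and 1303, 1179 and 728 in TKO retinae. It moved opposite to Dll4, with TKO replicate 3 nearest to the DKO group. Its log2 fold change was 1.03 (standard error 0.194, edgeR's quasi-likelihood test, adjusted p = 0.0123), just past the fold needed, and 0.86 with total counts alone as the scaling. Leaving out TKO replicate 2, DKO replicate 1 or DKO replicate 2 gave adjusted p of 0.057, 0.0535 and 0.0595. Dll4 per Jag1 count was 0.516, 0.473 and 0.281 in DKO and 0.0220, 0.0187 and 0.0793 in TKO retinae, a 10.6-fold difference of the means (exact permutation p = 0.1). Jag2, the other Jagged ligand, had a log2 fold change of -0.04 (adjusted p = 0.866).

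Some genes of the HES, HEY and NRARP list other than Hes5 were also lower, and others did not pass. Of 10 HES, HEY and NRARP genes, 9 were tested, 5 were lower at an adjusted p of at most 0.05, 0 were higher and 4 did not pass, with a median log2 fold change of -0.98, which is the fitted value of Hes7 and rests on few counts. Nrarp, a Notch target that dampens the pathway, had 216, 183 and 140 normalized counts in DKO and 61.9, 102 and 94.5 in TKO retinae and fell by 1.06 on the log2 scale (standard error 0.236, adjusted p = 0.0213 from edgeR). Heyl, another target, had 83.8, 102 and 52.7 in DKO and 14.9, 22.1 and 38.0 in TKO retinae, and fell by 1.67 on the log2 scale (edgeR, adjusted p = 0.0225, standard error 0.382). Neither gene's groups overlapped, but leaving out TKO replicate 1, TKO replicate 2, DKO replicate 1 or DKO replicate 2 moved their adjusted p above 0.05, to at most 0.0817 for Nrarp and 0.0908 for Heyl. Hes2 had 1, 0 and 4 counts in TKO retinae against 36.4 ± 15.1 normalized counts in DKO retinae (SD, n = 3), and was called lower (adjusted p = 0.0103 from edgeR). Hey1 and Hey2 had log2 fold changes of -0.25 and -0.40 and did not pass.

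The machinery of the pathway moved less. Of 14 genes for receptor glycosylation and cleavage, 1 was higher and 1 lower at an adjusted p of at most 0.05 and 0 were called. The gamma-secretase genes Aph1a and Ncstn and the protease gene Adam10 had log2 fold changes of -0.10, 0.07 and -0.13. Of 12 genes for ligand endocytosis and receptor turnover, 1 was higher and 3 lower, and Neurl1b, an E3 ligase of the Neuralized family, was the one called, with 225, 184 and 104 normalized counts in DKO and 31.0, 44.2 and 70.0 in TKO retinae (log2 fold change -1.82, standard error 0.361, adjusted p = 0.0143 from edgeR, and from 0.0576 to 0.066 without TKO replicate 2, DKO replicate 1 or DKO replicate 2). Of 15 genes of the nuclear complex and its corepressors, 1 was higher and 3 lower and 0 were called. Ep300, an acetyltransferase, was at 0.44 on the log2 scale (adjusted p = 0.0439), which with total counts alone as the scaling was 0.27 (adjusted p = 0.0972) and with 1 retina left out reached an adjusted p of 0.154 (without DKO replicate 2), and Ctbp1 and Snw1 had -0.24 and 0.13.

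Proneural and neurogenic bHLH genes were lower in part. Of 18 listed, 15 were tested, 8 were lower and 1 higher at an adjusted p of at most 0.05, and 6 did not pass. The 8 include Olig2 and Ptf1a, which were at 0 in all TKO retinae and entered the test only through their DKO counts. Nhlh1, a bHLH gene of newborn neurons, had 254, 227 and 161 in DKO and 64.2, 77.9 and 93.3 in TKO retinae (log2 fold change -1.45, standard error 0.219, adjusted p = 0.00752). Neurod6, a gene of some amacrine cells, fell by 1.13 on the log2 scale (adjusted p = 0.0248, and from 0.0557 to 0.106 without TKO replicate 1, TKO replicate 2, DKO replicate 1 or DKO replicate 2).

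The most counted genes of this list went 3 ways. Neurod1, which photoreceptors need, was higher in TKO retinae, with 1717, 1621 and 2848 normalized counts in DKO and 3531, 4253 and 3139 in TKO retinae (log2 fold change 0.82, standard error 0.216, adjusted p = 0.0369 from edgeR). Neurod4 had 3261 ± 126 and 3317 ± 135 normalized counts in DKO and TKO retinae (SD, n = 3 each) and did not pass (adjusted p = 0.854 from edgeR). Nhlh2 had 2141 ± 442 and 1179 ± 168 normalized counts and fell by 0.86 on the log2 scale (adjusted p = 0.0128 from edgeR). With 1 retina left out, the adjusted p rose to as much as 0.128 for Neurod1 and 0.0607 for Nhlh2, past 0.05 without TKO replicate 2, DKO replicate 1 or DKO replicate 2 for both, and for Neurod1 also without TKO replicate 1.

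Some partners and inhibitors of bHLH factors were lower, and 0 were higher. Of the 3 E proteins, the dimer partners of proneural factors, Tcf4 and Tcf3 were lower, with log2 fold changes of -0.67 (adjusted p = 0.0148 from edgeR) and -0.59 (adjusted p = 0.0274), and Tcf12 did not pass (-0.12, adjusted p = 0.323). Of the 4 ID genes, whose proteins block E proteins, Id2 was lower at -0.91 (adjusted p = 0.0185) and Id4 at -0.51 (adjusted p = 0.0498). Id3, at -0.99 (adjusted p = 0.0659), and Id1 did not pass. Leaving out TKO replicate 2, DKO replicate 1 or DKO replicate 2 moved the adjusted p of Tcf4, Tcf3, Id2 and Id4 above 0.05, to at most 0.0674, 0.0949, 0.0812 and 0.167, and leaving out TKO replicate 1 did so for Tcf4, Tcf3 and Id4. Over all 22 bHLH, E protein and ID genes tested, 12 were lower and 1 higher at an adjusted p of at most 0.05. Of all genes tested, 9.2% were lower and 7.35% higher. The calls were 4 lower and 0 higher, where 4.38% of all genes tested were called lower and 1.97% higher. The median log2 fold change was -0.83. Olig2 and Ptf1a, tested only through their DKO counts, are in the 12 and in this median. Outside the members the median was -0.70 over 19 genes, of which 3 were called lower and 0 higher.

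**Figure D2:**
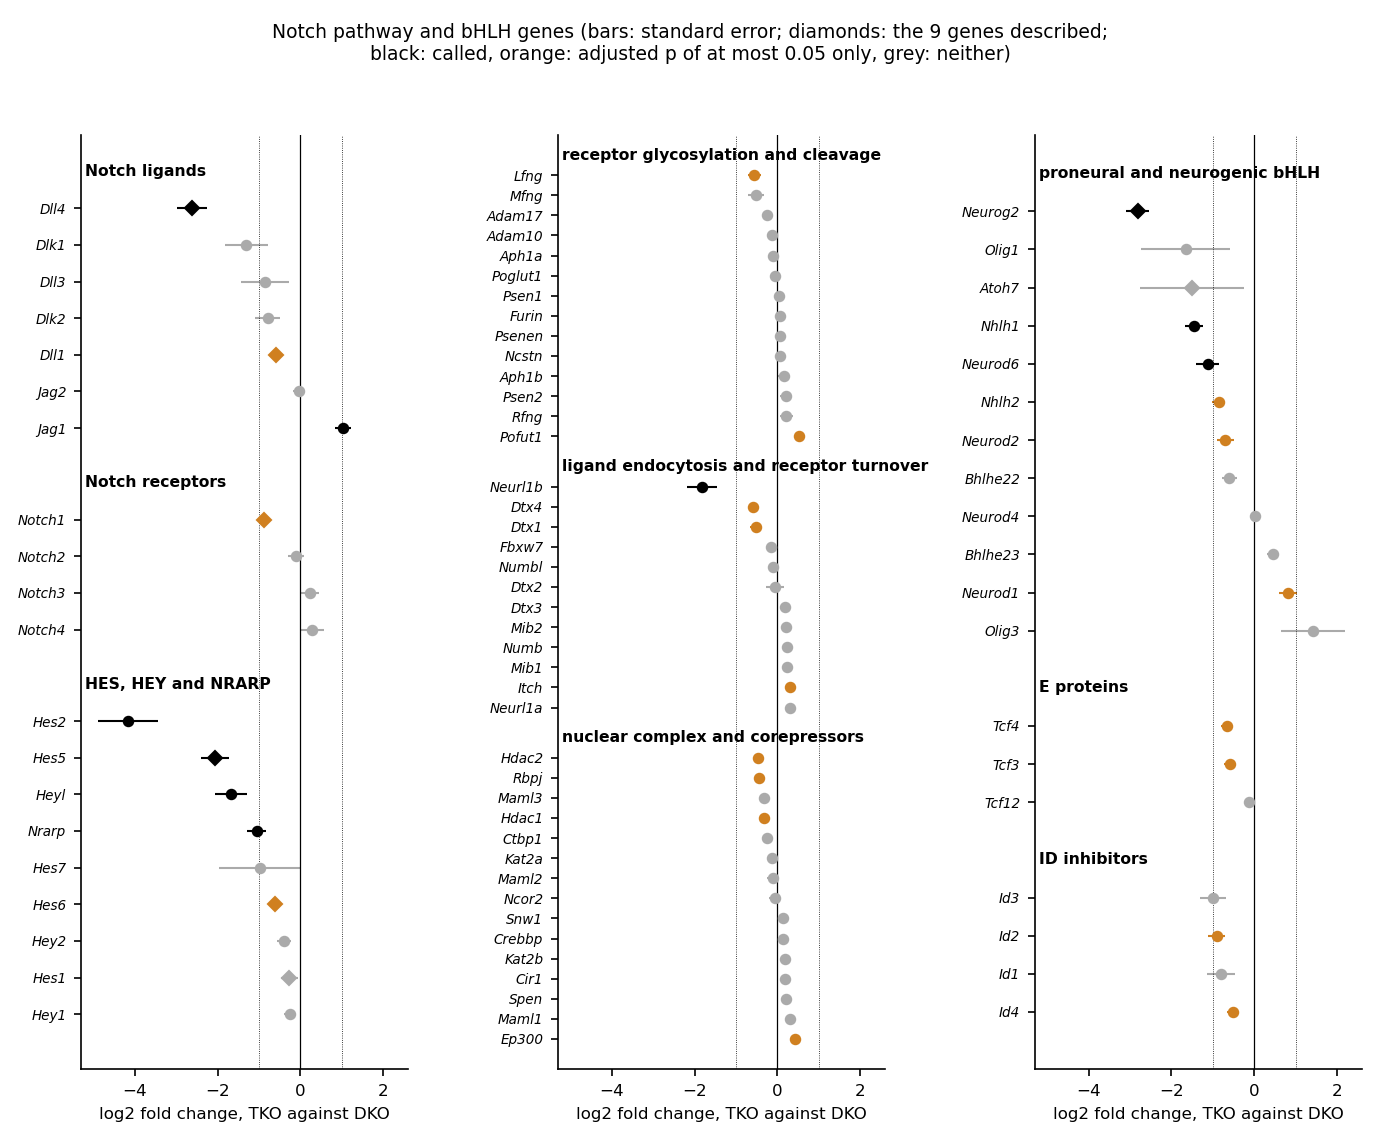
Fitted log2 fold change of TKO against DKO retinae (x axis) for the Notch pathway and bHLH genes reported here, grouped by role, with the standard error as bars, diamonds for the 9 genes described and dotted lines at a 2-fold change. Neurog2 at -2.82, Dll4 at -2.62 and Hes5 at -2.07 lie far to the left, Jag1 at 1.03 lies to the right, and genes of receptor processing gather near 0. Olig2 and Ptf1a, at 0 counts in all TKO retinae, are not drawn.

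Markers of cell types that express these genes moved with some of them and not with others. Dividing cell markers, a list of 10 mitotic genes, summed to 6159 to 12574 normalized counts in DKO and 883 to 2727 in TKO retinae, all 10 genes had groups that did not overlap, and 9 were called lower. The gene not called, Bub1b, was at -0.55 on the log2 scale (adjusted p = 0.107 from edgeR). On average it held 650 of 9379 normalized counts of the sum in DKO and 445 of 1721 in TKO retinae. The make-up of the sum thus differed between genotypes. Top2a fell by 3.21 (adjusted p = 0.0078 from edgeR) and Mki67 by 2.52 (adjusted p = 0.0152) on the log2 scale, and no gene of the list was at 0. DKO replicate 3 was the lowest DKO retina and TKO replicate 3 the highest TKO retina for this sum, as for Dll4, Hes5 and Neurog2. The part of dividing cells in the lower Notch and proneural genes was not tested.

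Within libraries, Neurog2 and Dll4 overlapped between genotypes relative to this sum, and Hes5, Notch1, Hes6, Dll1 and Hes1 did not. Neurog2 counts per count on the dividing cell markers were 0.0311, 0.0433 and 0.0405 in DKO and 0.0390, 0.0325 and 0.0234 in TKO retinae, which overlapped (exact permutation p = 0.3). Dll4 per such count was 0.0219, 0.0244 and 0.0251 in DKO and 0.0325, 0.0142 and 0.0212 in TKO retinae, which overlapped as well (exact permutation p = 0.8). Hes5 per such count was 0.0131, 0.0166 and 0.0157 in DKO and 0.0247, 0.0176 and 0.0185 in TKO retinae, so all TKO values lay above all DKO values (exact permutation p = 0.1).

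Notch1, Hes6, Dll1 and Hes1 also stood higher per dividing cell marker count in TKO than in DKO retinae. The marker sum itself went from a mean of 9379 normalized counts in DKO to 1721 in TKO retinae. Any gene that fell clearly less than this sum, or did not change, comes out higher on this scale. These ratios, and that of Hes5, therefore show a smaller fall than that of the markers and no rise of the genes. Notch1 was at 0.156 ± 0.0648 in DKO and 0.490 ± 0.194 in TKO retinae, and Hes6 at 0.0572 ± 0.0158 and 0.239 ± 0.139 (SD, n = 3 each). Dll1 was at 0.0329 ± 0.0144 and 0.121 ± 0.0406, and Hes1 at 0.0226 ± 0.00574 and 0.113 ± 0.0433. None of these 4 ratios overlapped between genotypes (exact permutation p = 0.1 for each, 0.133 adjusted over the 20 compared).

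**Figure D3:**
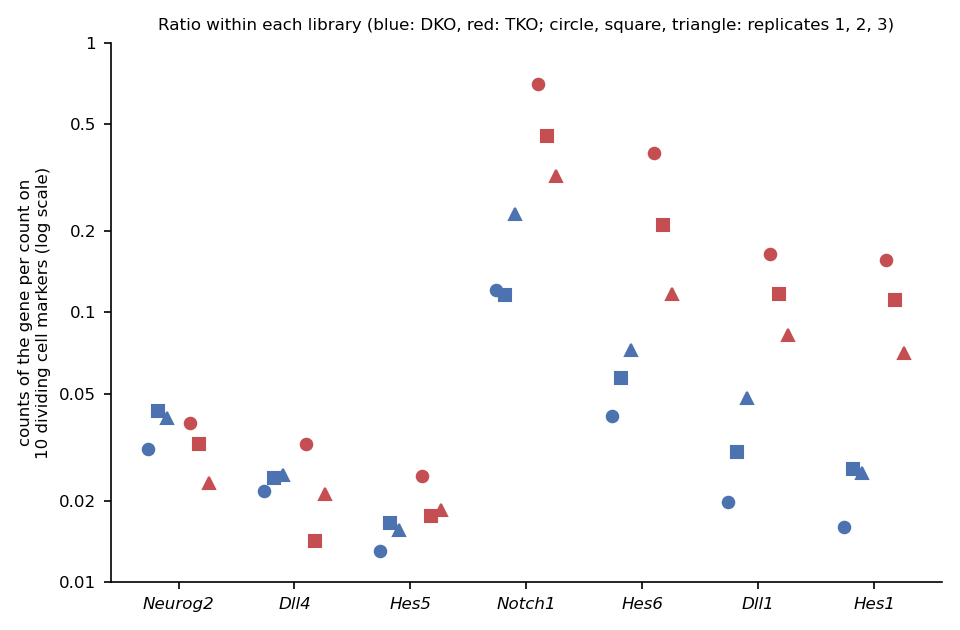
Counts of each gene per count summed over 10 dividing cell markers (y axis, log scale) in each DKO (blue) and TKO (red) retina. For Neurog2 and Dll4 the genotypes overlap, and for Hes5, Notch1, Hes6, Dll1 and Hes1 all TKO retinae lie above all DKO retinae. The marker sum was lower in TKO retinae, so a gene that fell clearly less than this sum lies higher here.

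Müller glia markers did not fall with Hes5. Their sum over 10 genes was 71342 to 77490 normalized counts in DKO and 78668 to 84147 in TKO retinae, with 3 genes higher and 2 lower at an adjusted p of at most 0.05. Glul, glutamine synthetase, was called higher (log2 fold change 1.15) and Crym lower (-1.28), while Rlbp1 (0.76), Kcnj10 (0.45) and Apoe (-0.90) passed without reaching a 2-fold change. Hes5 per Müller glia marker count was 4.66-fold higher in DKO retinae and did not overlap (exact permutation p = 0.1), while Hes1 per such count overlapped (exact permutation p = 0.3).

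Endothelial markers did not fall with Dll4. Their sum over 10 genes was 5748 to 7279 normalized counts in DKO and 5624 to 6983 in TKO retinae, 0 were called, and the median log2 fold change was 0.41. Kdr and Flt1, both receptors of vascular growth factor, had log2 fold changes of -0.21 and 0.23, and Pecam1 was higher (0.87, adjusted p = 0.0336 from edgeR). Kdr made up most of the sum, with 5132 of 6467 normalized counts in DKO and 4426 of 6108 in TKO retinae on average, and was the only marker of the list with a log2 fold change below 0. Dll4 per endothelial marker count was 0.0379, 0.0399 and 0.0243 in DKO and 0.00502, 0.00393 and 0.00826 in TKO retinae, 5.93-fold apart in the means (exact permutation p = 0.1). Of 6 mural cell markers 0 were called, with Rgs5 at 0.41 and Pdgfrb at 0.36 on the log2 scale. Cspg4 of the same list went the other way, at -1.17 (adjusted p = 0.0778 from edgeR), with all TKO values below all DKO values.

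Progenitor markers were lower in part. Their sum over 10 genes was 9071 to 9693 normalized counts in DKO and 7468 to 8714 in TKO retinae, 4 were lower at an adjusted p of at most 0.05 and 1 of these was called, Sox2, which fell by 1.15 on the log2 scale (edgeR, adjusted p = 0.00627). Six3 was lower by 0.47 on the log2 scale (adjusted p = 0.0186). The part of progenitors in the lower Notch and proneural genes was not tested.

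Oligodendrocyte markers bear on Olig2. Their sum over 7 genes was 1156 to 1563 normalized counts in DKO and 1102 to 1262 in TKO retinae, with Mobp at 0 in all 6 libraries and Sox10 at no more than 8.42 normalized counts in any. Pdgfra and Mbp had log2 fold changes of -0.44 and -0.02 and did not pass, and Mog was called lower. Of 4 astrocyte markers 0 were called, with Gfap at -1.46 (adjusted p = 0.0566 from edgeR) and Aldoc at 0.48 (adjusted p = 0.0519).

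Other cells moved as well. All 9 rod markers were called higher in TKO retinae, with Gnat1 at 1.84 on the log2 scale, and their sum was 119603 to 225845 normalized counts in DKO and 351419 to 712685 in TKO retinae. Of 8 microglia markers 5 were called lower, Csf1r (-1.03) and C1qb (-1.17) among them. Of 7 cone markers 2, of 9 lens markers 3 and of 8 pigment epithelium markers 1 were called higher. Bipolar, amacrine, horizontal and ganglion cell markers held 0 called genes. By the adjusted p alone, 3 of 8 bipolar markers were higher, where 7.35% of all genes tested were higher. No amacrine, horizontal or ganglion cell marker passed. Median log2 fold changes were 0.365 for bipolar, -0.24 for amacrine, -0.78 for horizontal and 0.17 for ganglion cell markers. The part of these cells in the values of the 9 members was not tested.

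**Figure D4:**
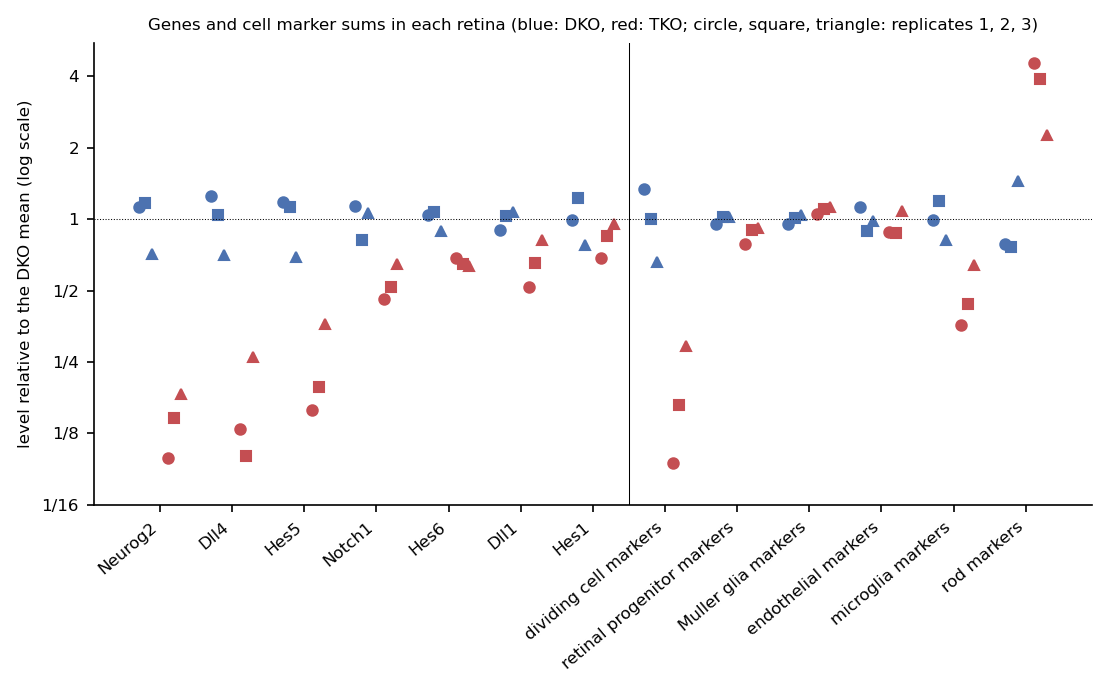
Level in each retina relative to the DKO mean (y axis, log scale) for 7 genes, left of the line, and for the summed markers of 6 cell types, right of it. Neurog2, Dll4, Hes5 and the dividing cell markers are far below 1 in TKO retinae (red), Hes1, Müller glia and endothelial markers stay near 1, and rod markers are above it.

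For the 6 members with a mean of at least 100 normalized counts, the genes most like them were ranked by Pearson r of log2 CPM over the 6 libraries, among 11656 genes. With 6 libraries that share genotype and so many genes, values of r near 1 come easily, and they are given as a description. The genes most like Neurog2 were Tubb5 (r = 0.9984) and Gnai3 (r = 0.9984), and those most like Dll4 were Ablim3 (r = 0.999) and Peg10 (r = 0.9976). Notch1 was most like Plek (r = 0.9992) and Tcof1 (r = 0.9981), Dll1 like Tmem176b (r = 0.9983) and Fuca1 (r = 0.998), and Hes6 like Rab3b (r = 0.9956) and Zmynd19 (r = 0.9952). For Hes1, whose groups overlapped, they were Arl15 (r = 0.9975) and Fgf13 (r = 0.988). Pearson r does not measure the size of a change. Log2 fold changes were -0.82 for Tubb5 and -0.40 for Gnai3, against -2.82 for Neurog2. Those of Ablim3 and Peg10 were -0.535 and -1.57, against -2.62 for Dll4. Tcof1 was at -0.19, against -0.89 for Notch1. Only Tmem176b (-0.63) and Rab3b (-0.86) had larger falls than their members, Dll1 (-0.60) and Hes6 (-0.61).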

How the data were processed

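The authors deposited raw counts of read pairs per gene, named by symbol, for 6 whole retinae. Per the paper's methods, reads were aligned to GRCm38 with STAR and counted with HTSeq, whereas the submitters' processing notes name TopHat2, featureCounts, DESeq2 and mm10, and which set made the table is uncertain. The strand setting is not given in the sources used here.

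Genes with a sum under 10 were removed. Counts were scaled by TMM and compared with edgeR 4.0.16 (quasi-likelihood F test, R 4.3.3), with Benjamini-Hochberg adjustment over 16904 genes, after the test was tested on simulated data. DESeq2 1.42.0, 3 other scalings, 3 other filters, robust dispersions, the replicate number as a block, other thresholds and each retina left out were alternatives. Single values were compared by exact permutation (SciPy 1.17.1, Python 3.11.15). Coordinates and exon lengths are from GENCODE M21, and CPM (counts scaled to the TMM-corrected library size) was divided by exon length for levels per kilobase. Values of log2 CPM used a pseudocount of 1. Intervals are at 95%.

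Named were the 9 members, Hells, Rb1 and Rbl1, called genes of the pathway and bHLH lists, the 3 most counted genes of each such list, the 2 most counted of each marker list that is discussed, and the 2 genes most like each member with a mean of at least 100 normalized counts. Crym, Rlbp1, Kcnj10, Pecam1, Cspg4, Hes7, Mog, Mobp, Sox2, Sox10, Ptf1a, Id1, Bub1b, Onecut1, Lhx1 and Gm14207 were named after their values were seen. A few genes under this rule are not reported here. Members and lists were chosen with earlier results of these data known.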

Additional observations from a re-analysis of the deposited data

How the results depend on the processing

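Dll4, Hes5 and Neurog2 remained called under DESeq2, 3 other scalings, 3 other filters, robust dispersions, a threshold of 0.01 and each retina left out (3 to 4 members called, the fourth being Notch1), and 6 members passed with no minimum fold change. Deviations of same-numbered retinae had r = 0.0677, -0.0575 and -0.247, and those of differently numbered retinae ran from -0.284 to 0.279. With 3 retinae per group this check cannot decide whether the numbers pair retinae, so the fit with the number as a block is not set aside by it. With the replicate number as a block, 1 member was called, Neurog2, and log2 fold changes were -0.88 for Notch1 (adjusted p = 0.0566 from edgeR), -0.61 for Dll1 (0.0651), -2.64 for Dll4 (0.0566), -2.08 for Hes5 (0.062), -0.60 for Hes6 (0.0566) and -6.56 for Olig2 (0.0726), with 0 Notch pathway and 1 bHLH, E protein or ID gene called. Over all genes the block gave 90 calls against 1074 without it, the threshold of 0.01 gave 421 and no minimum fold gave 2721. With 1 retina left out the calls ranged from 471 to 1500, Notch pathway calls from 3 to 10 and bHLH calls from 2 to 7, and log2 fold changes ranged from -1.03 to -0.78 for Notch1, -0.77 to -0.45 for Dll1, -3.11 to -2.35 for Dll4, -2.49 to -1.85 for Hes5, -0.68 to -0.56 for Hes6, -3.03 to -2.61 for Neurog2 and -6.95 to -6.10 for Olig2. No minimum fold gave 19 Notch pathway and 11 bHLH calls, 0.01 gave 2 of each, and total counts alone gave 7 bHLH calls. Total counts alone moved the median of all genes from -0.01 to -0.17. Genes near 0 changed sign: Ncstn (-0.0837), Snw1 (-0.0291), Rbl1 (-0.0356) and Neurod4 (-0.14) with total counts alone and Neurod4 with upper-quartile scaling (-0.0085). With 1 retina left out, Jag2 ranged from -0.112 to 0.0706, Neurod4 from -0.00076 to 0.0612, Notch2 from -0.232 to 0.13 and Rbl1 from -0.15 to 0.36. Of 509 values of the 34 other named genes outside the markers, 413 kept their direction and side of the threshold, 79 no longer passed, 6 newly passed and 11 changed sign. The cause of these changes was not tested. Under 2 filters Atoh7 and Olig2 were removed before testing, Atoh7 also when some retinae were left out, and DESeq2 gave no adjusted p for Atoh7. Depth limits what Atoh7, Olig2 and Hes2 can show.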

Other observations

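Other genes around the pathway, chosen after their values were seen, passed the same edgeR test without reaching a 2-fold change. Lower in TKO retinae were Rbpj, the DNA-binding partner of Notch (log2 fold change -0.45, adjusted p = 0.0382), Lfng, which adds sugars to the receptor (-0.56, adjusted p = 0.0389), the Deltex genes Dtx4 (-0.58, adjusted p = 0.0101) and Dtx1 (-0.51, adjusted p = 0.0468), and the histone deacetylase genes Hdac2 (-0.48, adjusted p = 0.0174) and Hdac1 (-0.33, adjusted p = 0.0372). Higher were Pofut1, which adds fucose to the receptor (0.52, adjusted p = 0.00821), and Itch, an E3 ligase that acts on Notch (0.29, adjusted p = 0.0288). Itch no longer passed when any retina except TKO replicate 3 was left out (adjusted p from 0.0613 to 0.114), and such fits were not read for the others.

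Ptf1a, a bHLH factor needed for amacrine and horizontal cells, had 0 counts in all TKO retinae and 9.41, 13.1 and 7.77 normalized counts in DKO replicates 1, 2 and 3. With 3 counts in each TKO library, the DKO mean of Ptf1a would be 2.95-fold above the TKO mean, leaving out the spread among DKO retinae. Its mean of 4.98 normalized counts was too low for a call, and it entered the test only through its DKO counts. The amacrine markers of this series held 0 called genes of 8 and the horizontal markers 0 of 4 tested. Their median log2 fold changes were -0.24 and -0.78. Of the horizontal markers, Onecut1 was at -1.24 (adjusted p = 0.0511 from edgeR), with all TKO values below all DKO values. Lhx1 and Onecut2 were at -0.87 and -0.70 and Calb1 at 0.09, and none of these passed. The part of these cells in the Ptf1a counts was not tested.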
